A study of Mus musculus with 13 samples.

Results

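The 10 genes described here mark fibroblasts and other stromal cells, and were followed in bulk RNA of MP EPO-GEMM ovarian tumors and of WT ovaries. They are Pdgfra, Pdgfrb, Ngfr, Tcf21, Dcn, Lum, Postn, Thy1, Pdpn and Fap, taken by gene symbol from a table of 53465 mouse genes, and all 10 were found and passed the filter on low values. The MP group held 10 tumors, labelled Myc;p53-/-, that arose in C57BL/6 females after the left ovary was injected and electroporated with plasmids. These carried Cas9 with a single-guide RNA against Trp53, a transposon vector that overexpresses MYC and a Sleeping Beauty transposase. The WT group held ovaries of 3 wild-type C57BL/6 mice without treatment, and the tumors were likewise labelled as not treated. The labels give an age of 8 to 12 wk, which for the tumors was the age at electroporation, and tumors were taken at the end point. Electroporation reaches any cell type near the injection, and whole tissue was used for RNA, so each value pools tumor cells with whatever host cells a tumor held.

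Fibroblasts build and remodel the collagen scaffold of an organ, and in the ovary they form the stroma around follicles. Platelet-derived growth factors act on them through the receptor tyrosine kinases PDGFRA and PDGFRB, the second of which also marks pericytes. Decorin and lumican are small leucine-rich proteoglycans that bind collagen fibrils, and periostin is a secreted matrix protein found where tissue is remodelled. FAP is a surface protease of activated fibroblasts, TCF21 is a transcription factor of mesenchymal progenitors, and NGFR is the p75 receptor for neurotrophins. Several of these markers are shared with other cells: THY1 with mouse T cells, PDPN with lymphatic endothelium and mesothelium, and NGFR with Schwann cells.

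Promoters are shown for the genes at either end of the results, Tcf21 and Ngfr, which were called lower under all 24 alternatives of the comparison between all MP tumors and WT ovaries, and Pdpn and Postn, which were called under 0 of the 24. RefSeq promoters on GRCm38.p6 matched 5 of the 10 genes, with 6 promoters in all. No promoter is given for Pdgfrb, Dcn, Lum, Thy1 and Fap. The search covered the 250 bases before each RefSeq gene start and looked on both strands for the TATA box (TATAAA), the general E-box bound by factors of the TCF21 class (CANNTG), the palindromic E-box that is one form of it (CACGTG) and the GC box (GGGCGG). Capitals mark the matches, and each sequence runs 5′ to 3′ on the strand of its gene, leaving out bases that fall inside the gene as the deposited table places it.
Tcf21, chr10:22820175-22820393, minus strand: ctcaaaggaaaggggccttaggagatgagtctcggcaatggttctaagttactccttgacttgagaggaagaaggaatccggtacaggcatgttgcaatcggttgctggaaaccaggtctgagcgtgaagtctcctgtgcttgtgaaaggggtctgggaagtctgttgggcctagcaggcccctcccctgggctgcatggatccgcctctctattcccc
Ngfr, chr11:95587736-95587948, minus strand: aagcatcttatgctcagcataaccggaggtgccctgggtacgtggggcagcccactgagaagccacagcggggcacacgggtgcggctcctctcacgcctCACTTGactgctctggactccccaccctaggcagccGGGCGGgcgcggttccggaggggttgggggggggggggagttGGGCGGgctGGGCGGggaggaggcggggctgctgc
Pdpn, chr4:143299565-143299814, minus strand: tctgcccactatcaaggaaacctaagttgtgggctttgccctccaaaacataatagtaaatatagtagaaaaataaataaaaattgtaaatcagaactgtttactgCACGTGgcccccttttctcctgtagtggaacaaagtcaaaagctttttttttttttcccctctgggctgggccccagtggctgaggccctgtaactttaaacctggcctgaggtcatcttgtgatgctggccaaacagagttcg
Postn, chr3:54360857-54361106, plus strand: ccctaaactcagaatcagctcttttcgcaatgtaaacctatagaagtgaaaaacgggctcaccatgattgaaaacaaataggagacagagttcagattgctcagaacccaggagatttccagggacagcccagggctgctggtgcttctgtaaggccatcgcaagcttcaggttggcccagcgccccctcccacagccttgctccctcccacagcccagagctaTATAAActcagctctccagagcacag
Postn has 2 promoters in the RefSeq table, and the one printed, which lies next to the gene start of the deposited table, held TATAAA with its first base 26 bases before the RefSeq start, a motif found in 12.4% of 32851 mouse promoters. The other (chr3:54359017-54359266) had 0 matches to the 4 motifs. Pdpn held CACGTG at 144 bases, which 6.02% of promoters have. In Ngfr there were 4 matches to GGGCGG, at 114, 72, 63 and 16 bases, and CANNTG matches at 150 and 25 bases, of which those at 25 and 16 lie in the 37 bases not printed. No match to any of the 4 motifs was found in the Tcf21 window, whereas 66.2% of promoters hold CANNTG and 32.7% hold GGGCGG. These are matches of letters only.

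Expression is given as TPM, a measure of transcript abundance that corrects for gene length and sums to 1000000 in each library. Reads worked back from the table came to between 31445004 and 64013840 per WT ovary and between 3892690 and 19906507 per MP tumor, so a gene of 1 kb gained 0.0513 to 0.109 TPM per read in WT ovaries and 0.114 to 0.790 TPM per read in tumors. Library names carry 1 of 3 numbers, whose meaning the labels do not give. The libraries that share a number are called set A (the 3 WT ovaries and MP1 to MP3), set B (MP4 to MP6) and set C (the other 4 tumors). In MP2, 10 genes held 55.1% of all TPM, against 7.92% to 20.6% in the other tumors. Trp53, the gene targeted by the guide, was at 80.7 to 85.4 TPM in WT ovaries, at 4.30 to 26.0 TPM in MP1 to MP9 and at 187 TPM in the library labelled MP10. Because these levels set MP2 and the library labelled MP10 apart, counts are also given without both. Markers of granulosa cells summed to between 3415 and 6154 TPM in WT ovaries and markers of theca and luteal cells to between 8881 and 10215 TPM, so the normal tissue carried the markers of ovary.

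In normal ovaries, levels differed widely between the genes. Dcn and Lum were the most abundant, at 345 ± 120.0 and 334 ± 165 TPM (mean ± SD, n = 3), and their ranges overlapped. Then came Pdpn (99.3 ± 3.39), Pdgfrb (94.3 ± 5.08), Tcf21 (92.2 ± 5.94) and Pdgfra (85.0 ± 19.1), none separated from its neighbour by more than the spread over ovaries. Thy1 followed at 26.8 ± 2.96 TPM, apart from its neighbours on both sides. Ngfr (14.8 ± 2.87) and Postn (10.96 ± 1.57) overlapped, and Fap, at 3.16 ± 0.822 TPM, lay below all of them. The order differed in MP tumors, where by median TPM over 10 libraries Pdpn led at 117, ahead of Pdgfrb (15.2), Lum (14.0), Dcn (12.1), Postn (10.1) and Fap (7.33). Thy1 (2.67), Pdgfra (1.86), Tcf21 (1.46) and Ngfr (0.249) were lowest, and the ranges over tumors of all neighbours in this order overlapped.

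**Figure D1:**
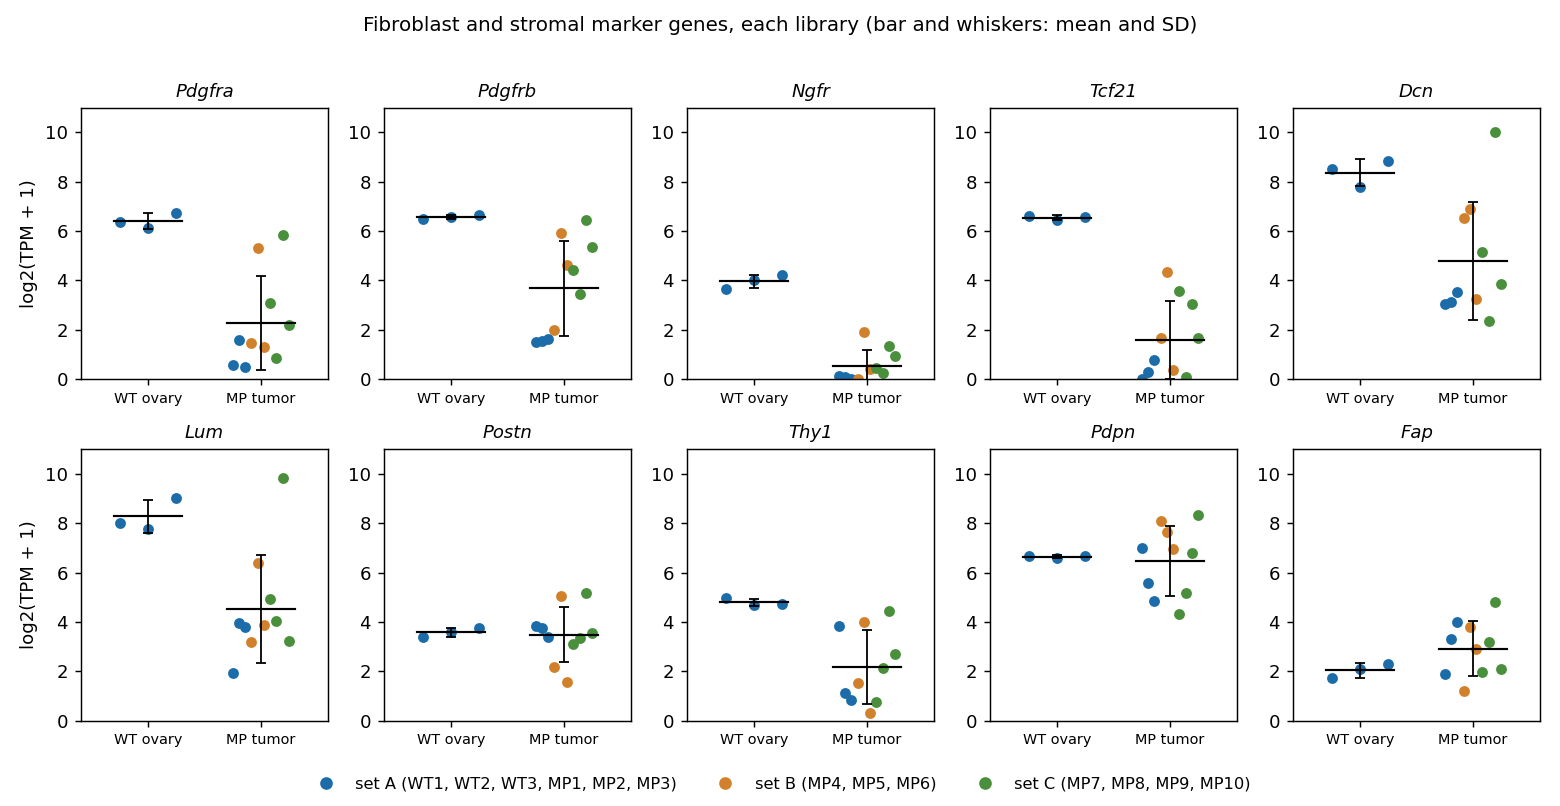
Level of each of the 10 genes as log2(TPM + 1) in 3 WT ovaries and 10 MP tumors, 1 point per library, coloured by set, with the mean as a bar and the SD as whiskers. For Pdgfra, Pdgfrb, Ngfr, Tcf21 and Thy1 every tumor lies below every ovary, whereas tumors lie on both sides of the ovaries for Pdpn, Fap and Postn.

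The first comparison asked which of these genes differed between the 10 MP tumors and the 3 WT ovaries. Of the 10, 5 were called lower (Tcf21, Pdgfra, Lum, Ngfr and Thy1) in MP tumors, by limma on log2(TPM + 1) at an adjusted P under 0.05, and 0 were called higher. Over all 17277 genes tested, 14.3% were called lower (2463 genes) and 2.51% higher (433), a split that became 1896 lower and 1276 higher with median-of-ratios scaling and 2091 and 1904 with quantile normalization. Both scalings moved the median of all genes, to -0.02 and 0.08. Fold changes below are log2 values on this scale with their SE, and come out too small where TPM is low. The median log2 fold change of the 10 genes was -3.16, against -0.58 over all genes tested, and 9 of 10 were negative, against 69.9% of all genes. For 5 of the 10 genes every tumor lay below every ovary, which held for 16.4% of all genes. With median-of-ratios scaling 3 of the 10 were called lower, since Lum (adjusted P = 0.0589 by limma) and Thy1 (adjusted P = 0.0760) no longer passed, and with voom on reads or with the set as a term 7 were, where 4045 and 8534 of all genes were called lower. The number called lower was 3 without MP2 and the library labelled MP10, it was also 3 without MP2, MP3, MP4, MP6 or MP8 alone, and it was 2 when any 1 WT ovary was left out. The count over all genes moved too, to 2901 lower without MP2 and the library labelled MP10, to between 2055 and 3264 lower and 333 and 635 higher without any 1 tumor, and to between 1158 and 1195 lower and 94 and 153 higher without any 1 ovary. In bulk tissue, fewer cells of a type and less RNA per cell cannot be told apart.

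**Figure D2:**
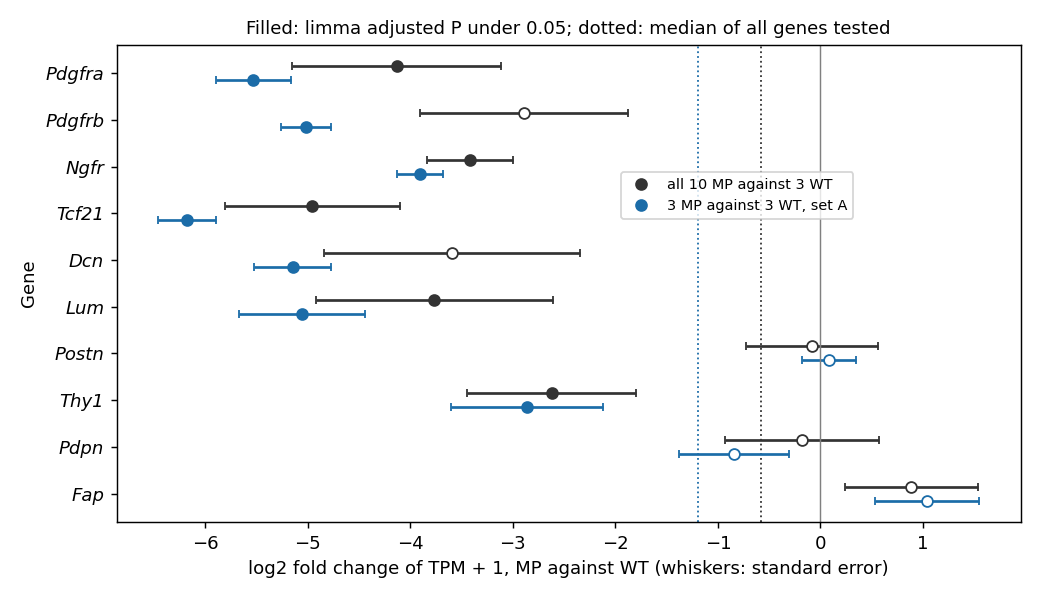
Log2 fold change of TPM + 1 in MP tumors against WT ovaries for each gene, with the SE as whiskers, for all 10 tumors (black) and for the 3 tumors of set A (blue), both against the same 3 ovaries. Filled points have a limma adjusted P under 0.05, and dotted lines mark the median of all genes in each comparison (-0.58 and -1.19). The lowest values are those of Tcf21, at -4.95 and -6.18.

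Among the receptors, Pdgfra (chromosome 5, 75152292 to 75198215, GRCm38), which encodes a PDGF receptor widely used to mark fibroblasts, was at 81.5, 67.9 and 106 TPM in the WT ovaries. Its level in tumors ran from 0.410 TPM in MP3 through a median of 1.86 to 56.9 TPM in MP9. Only MP5 (38.7) and MP9 exceeded 10 TPM, and no tumor reached the lowest ovary. The log2 fold change was -4.13 ± 1.02 (adjusted P = 0.0125 by limma), or -3.56 relative to the median of all genes. Leaving out any 1 WT ovary brought the adjusted P to between 0.0514 and 0.0744.

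Pdgfrb, on chromosome 18, which encodes the receptor shared by fibroblasts and pericytes, was at 89.9, 93.3 and 99.9 TPM in WT ovaries. Tumors ranged from 1.80 TPM in MP1 through a median of 15.2 to 85.2 TPM in MP9. All 10 tumors lay below the ovaries, MP9 by the smallest margin, and the gene did not pass the threshold (log2 fold change -2.89 ± 1.02, adjusted P = 0.0627 by limma). Without MP5, MP9 or the library labelled MP10 the adjusted P was 0.0346, 0.0265 and 0.0473, respectively. It also passed with the set as a term in the fit, where only set A sets tumors against ovaries (log2 fold change -5.02, adjusted P = 0.000280 by limma), with voom on reads (adjusted P = 0.00698) and with quantile normalization (adjusted P = 0.0339). Of 9 markers of pericytes and mural cells, 2 were called lower, Rgs5, a regulator of G-protein signalling (log2 fold change -2.56), and Abcc9, a potassium channel subunit (-2.50). These markers summed to 313 to 376 TPM in WT ovaries and to 38.5 to 399 TPM in tumors, with 0 of the 9 at 0 in all tumors. The highest sums were those of MP9 and MP5 (233 TPM), the tumors also highest in Pdgfrb. In MP9 the sum was mostly Kcnj8 (170 TPM) and Mcam (143), named after their values were seen, while Rgs5 (24.7) was below every ovary. The part of pericytes and mural cells in the level of Pdgfrb was not tested.

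Ngfr (chromosome 11, 95568818 to 95587735) encodes the p75 neurotrophin receptor and was at 11.7, 15.3 and 17.4 TPM in WT ovaries. No read was counted in MP3 and MP4, and the other tumors ranged from 0.0522 TPM in MP2 to 2.75 TPM in MP5, with a median of 0.249 over all 10. These values rest on 0 to 14 reads per tumor, against 486 to 1169 per ovary, and a count of 0 allows up to 3 reads, which were worth 0.0993 to 0.688 TPM across tumors. Even the highest tumor was below the lowest ovary, and only 2 tumors reached 1 TPM. Ngfr had the smallest adjusted P of the 10 genes (3.59e-05 by limma, log2 fold change -3.42 ± 0.42). A gene needed 1 TPM in 3 libraries to be tested, so Ngfr was tested only through the ovaries, where it was high. Its call and the size of its P are therefore not independent support. Of 4 Schwann cell markers, 3 were tested and 0 were called. The list summed to 12.5 to 26.6 TPM in WT ovaries and 1.35 to 49.1 TPM in tumors, while Sox10, its defining transcription factor, was at 0 to 0.113 TPM in WT ovaries, at 0 in 7 tumors and at 0.843 to 6.15 TPM, above every ovary, in MP5, MP6 and MP8. The part of Schwann cells in the level of Ngfr was not tested.

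Tcf21 (chromosome 10, 22817281 to 22820174), the only transcription factor among the 10, was at 96.1, 85.4 and 95.1 TPM in WT ovaries. In tumors it had no read in MP1, a median of 1.46 TPM and a highest value of 19.5 TPM in MP5, with MP7 (10.7) and MP9 (7.21) next. The 0 to 61 reads per tumor compare with 1847 to 4354 per ovary, and 3 reads were worth 0.146 to 1.01 TPM in tumors. So the highest tumor was well below the lowest ovary, and its log2 fold change, -4.95 ± 0.85, was the largest of the 10 genes (adjusted P = 0.000979 by limma). The gene shares chromosome 10 with Dcn and Lum. The 812 genes of that chromosome that were tested had a median log2 fold change of -0.71, compared with -0.58 for all genes.

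Of the matrix genes, Dcn and Lum were low in most tumors and Postn was not. Dcn (chromosome 10, 97479609 to 97518143), for decorin, was at 362, 218 and 455 TPM in WT ovaries. Tumors ranged from 4.08 TPM in MP8 through a median of 12.1 to 1050.4 TPM in MP9, the next highest being MP5 at 118 TPM. The other 9 tumors were below every ovary, and MP9 was above every ovary. The log2 fold change was -3.60 ± 1.25 (adjusted P = 0.0603 by limma), and without MP9 it was -4.18 (adjusted P = 0.00401). Without MP5 the adjusted P was 0.0410, with the set as a term it was 0.00823 (log2 fold change -5.15) and with voom 0.0108.

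Lum (chromosome 10, 97565128 to 97572703), for lumican, starts 46985 bp beyond the end of Dcn with 0 annotated genes between them. It was at 260.3, 218 and 522 TPM in WT ovaries, and ranged in tumors from 2.84 TPM in MP1 through a median of 14.0 to 910.3 TPM in MP9, with MP5 next at 82.7. As with Dcn, 9 tumors were below the ovaries and MP9 was above them. Lum passed the threshold (log2 fold change -3.77 ± 1.15, adjusted P = 0.0369 by limma) and lost it under 12 of the 24 alternatives. Although the proteoglycans were both low in 9 tumors, the ratio of Lum to Dcn TPM, chosen after the values were seen, was 0.719 to 1.15 in WT ovaries and ran from 0.0900 in MP4 to 3.76 in MP8.

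Postn (chromosome 3, 54361109 to 54391037), for periostin, was at 9.42, 10.9 and 12.6 TPM in WT ovaries. Tumors ran from 1.92 TPM in MP6 through a median of 10.1 to 34.6 TPM in MP9, and MP5 was at 32.3. There were 4 tumors above the ovaries, 4 below and 2 among them. The log2 fold change was -0.08 ± 0.64 (adjusted P = 0.938 by limma), and it turned positive, at 0.58 and 0.88, with median-of-ratios scaling and quantile normalization. An SE of 0.64 leaves room for a change of either sign.

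Of the surface proteins, only Thy1 was called. Thy1 (chromosome 9, 44043384 to 44048579), a glycoprotein anchored to the membrane by a lipid, was at 30.1, 24.5 and 25.7 TPM in WT ovaries. Tumors ranged from 0.237 TPM in MP6 through a median of 2.67 to 20.7 TPM in MP9. Besides MP9, only MP5 (15.04) and MP1 (13.4) exceeded 10 TPM, and all 10 were below the ovaries. The log2 fold change was -2.62 ± 0.82 with an adjusted P of 0.0414 by limma, which passed the threshold in 10 of 24 alternatives. Of 6 T cell markers 3 were tested, and 2 were called lower, Cd3g (log2 fold change -1.41) and Cd3d (-0.83), both subunits of the T cell receptor complex. These 2 reached 1 TPM, the level a gene needed in 3 libraries to be tested, in the 3 WT ovaries alone, so they had to differ to be tested and their calls support nothing. The 6 summed to 11.4 to 14.0 TPM in WT ovaries and to 0.982 to 17.2 TPM in tumors. Cd3e, another subunit, was at 0.749 ± 0.0738 TPM in WT ovaries and at 0 in 6 of 10 tumors. The part of T cells in the level of Thy1 was not tested.

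Pdpn (chromosome 4, 143267431 to 143299564), for podoplanin, was at 100.5, 95.4 and 101.8 TPM in WT ovaries. It varied 16.9-fold among tumors, from 18.9 TPM in MP7 through a median of 117 to 319 TPM in the library labelled MP10. There were 6 tumors above every ovary and 4 below every ovary. Its log2 fold change was -0.18 ± 0.75 (adjusted P = 0.881 by limma), or 0.40 above the median of all genes, and it was 0.53 and 0.20 with median-of-ratios scaling and quantile normalization. Of 5 lymphatic endothelial markers 4 were tested and 3 were called lower, among them Prox1, the lineage's transcription factor (log2 fold change -1.82), and Lyve1, a hyaluronan receptor (-2.99). The list summed to 29.3 to 45.6 TPM in WT ovaries and 0.359 to 27.5 TPM in tumors. Prox1 was at 3.24 ± 0.380 TPM in WT ovaries and at 0 to 0.848 TPM in tumors, highest in MP5 and the library labelled MP10 (0.690). It reached 1 TPM in the ovaries alone, so it too had to differ to be tested. Of 4 mesothelial markers 1 was called lower, and they summed to 139 to 156 TPM in WT ovaries and 1.02 to 751 TPM in tumors. The part of lymphatic endothelium and mesothelium in the level of Pdpn was not tested.

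Fap (chromosome 2, 62500943 to 62574075) was the least abundant of the 10 in WT ovaries, at 2.30, 3.24 and 3.93 TPM. In tumors it ran from 1.32 TPM in MP4 through a median of 7.33 to 26.9 TPM in MP9, with MP3 (14.99) and MP5 (12.98) next. Of the tumors, 6 exceeded every ovary, 3 lay among the ovaries and 1 was below them. Its log2 fold change was positive, 0.89 ± 0.65, and did not pass the threshold (adjusted P = 0.345 by limma). Relative to the median of all genes, the difference was 1.46. It was called in 1 of 24 alternatives.

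**Figure D3:**
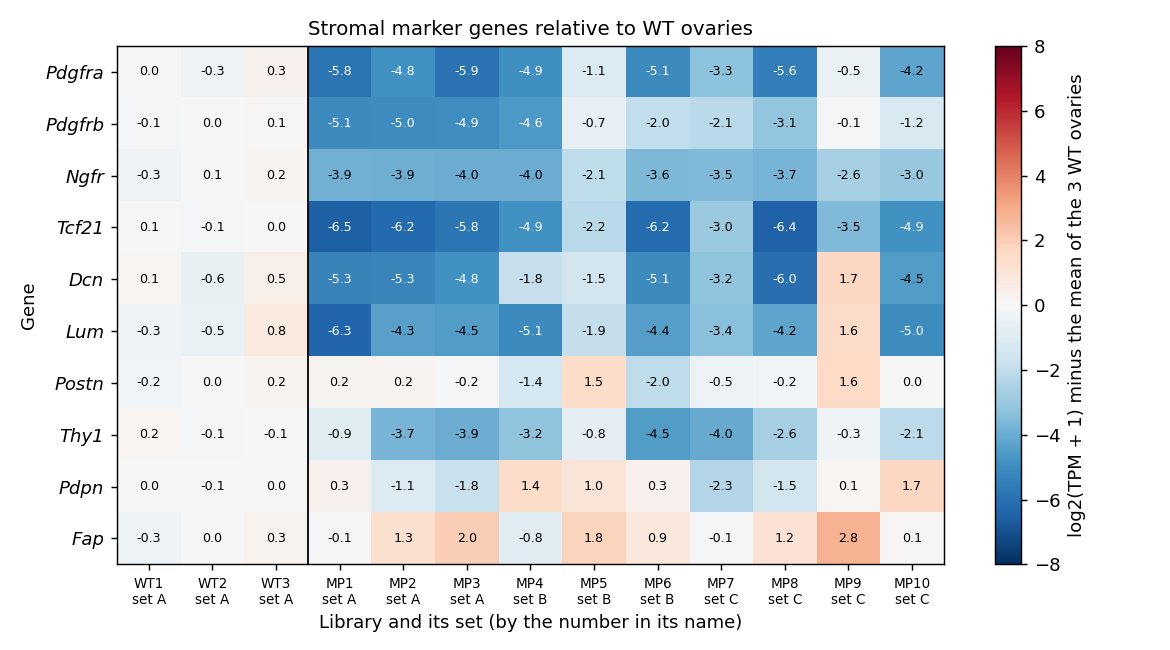
Level of the 10 genes (vertical axis) in each library (horizontal axis, with its set) as log2(TPM + 1) minus the mean of the 3 WT ovaries, blue for lower and red for higher. MP5 and MP9 are paler than the other tumors for Pdgfra, Pdgfrb and Thy1, and MP9 alone is red for Dcn and Lum.

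Relative to the mean, tumors differed among themselves more than ovaries did for each of the 10 genes, although for Ngfr, which had few reads in tumors, the SD itself was smaller over tumors (0.895 TPM) than over ovaries (2.87 TPM). The coefficient of variation of TPM was 82.4% to 257% over tumors, lowest for Pdpn and highest for Lum, and 3.42% to 49.3% over ovaries. MP9 had 5 genes above all ovaries (Pdpn, Fap, Dcn, Lum and Postn), the most of any tumor, and MP5 had 3 (Pdpn, Fap and Postn). In the other 8 tumors, 0 to 2 genes were above the ovaries and 7 to 9 below. The 10 genes summed to 2304 TPM in MP9, mostly Dcn and Lum, and to 79.6 to 583 TPM in the other tumors, compared with 833 to 1440 TPM in WT ovaries. MP9 also had the highest sum of mesothelial markers, 751 TPM against 1.02 to 115 TPM in other tumors and 139 to 156 TPM in ovaries, and MP5 the highest sum of smooth muscle and myofibroblast markers, 2403 TPM against 63.4 to 868 TPM in other tumors and 1793 to 2142 TPM in ovaries. In MP5 that sum was mostly Acta2 (1186 TPM, within the range of the ovaries) and Myl9 (1146, above it), named after their values were seen, and the other 4 of the 6 markers were below every ovary. MP5 was the shallowest library, with 3892690 reads. Other fibroblast markers summed to 3272 TPM in MP5 and 3310 TPM in MP9, above the ovaries (1809 to 2591), and to 230 to 827 TPM in the other tumors. In MP5 that sum was mostly Col1a1 (949 TPM), Col3a1 (863) and Vim (708), and in MP9 mostly Col3a1 (1264), Col1a1 (768) and Col1a2 (583). Gsn, Col15a1, Ly6a and S100a4, of the same list, were below every ovary in both tumors. These genes were named after their values were seen. Blood endothelial markers were also highest in these 2 tumors, at 189 and 153 TPM, below the ovaries (269 to 283). The part of these cell types and of depth in the levels of MP5 and MP9 was not tested.

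A second comparison stayed within set A, the only set with both groups, and set MP1 to MP3 against the same 3 WT ovaries. Here 7 of the 10 genes were called lower and 0 higher, while 57.3% of all genes were called lower and 6.44% higher. Tcf21 (log2 fold change -6.18), Pdgfra (-5.53), Dcn (-5.15), Lum (-5.05), Pdgfrb (-5.02), Ngfr (-3.90) and Thy1 (-2.86) passed, with limma adjusted P values from 1.54e-05 for Tcf21 to 0.0110 for Thy1. The median of all genes was itself at -1.19, and with median-of-ratios scaling 5461 genes were called lower and 4683 higher, in place of 9902 and 1112. Pdpn (-0.85, adjusted P = 0.204), Fap (1.04, adjusted P = 0.112) and Postn (0.09, adjusted P = 0.787) did not pass in limma. Without MP1, Pdpn was called lower (-1.44, adjusted P = 0.00861 by limma) and Fap higher (1.62, adjusted P = 0.00333). With single libraries left out, 8671 to 10668 of all genes were called lower and 663 to 2171 higher, the last being 663 without WT3, 725 without WT1 and 2171 without MP2. With median-of-ratios scaling, Fap (2.44) and Postn (1.63) were called higher in these libraries and Thy1 was no longer called lower (-1.58, adjusted P = 0.116 by limma).

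The last comparison asked how far tumors differed with the number in the library name, setting MP1 to MP3 against the other 7 tumors. Of the 10 genes, 1 was called lower in the set A tumors, Pdgfrb, and 0 were called higher, against 30.1% and 1.29% of all genes (5195 and 223, or 1677 and 2423 with median-of-ratios scaling). Pdgfrb was at 1.80 to 2.10 TPM in MP1 to MP3, at 2.93 to 59.0 TPM in MP4 to MP6 and at 9.90 to 85.2 TPM in the 4 others. The value of MP4, the nearest to set A, rests on 28 reads. How many of all genes were lower in every set A tumor than in every other tumor was not counted. The log2 fold change of Pdgfrb was -3.04 ± 0.77 (adjusted P = 0.00979 by limma), in a comparison whose median over all genes was -0.84, and it was -1.98 (adjusted P = 0.0588) with median-of-ratios scaling. The other 9 genes had limma adjusted P values from 0.125 for Tcf21 to 0.831 for Fap. With single tumors left out, 2830 to 5565 of all genes were called lower, fewest without MP2, and 46 to 343 higher (46 without MP3, 100 without MP1, 140 without MP5 and 343 without MP2). The call of Pdgfrb was lost without MP2 and the library labelled MP10. What the number stands for and the tumors themselves cannot be told apart.

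Other genes of the same pathways and cell types were read over all 13 libraries, as counts beside the 14.3% of genes called lower and the median of -0.58. Of 5 genes for PDGF ligands and the receptor-like Pdgfrl, 1 was called lower, Pdgfd, a ligand of PDGFRB (61.7 ± 15.7 TPM in WT ovaries and 11.2 ± 14.3 in tumors, log2 fold change -3.08), and the list had a median of -2.15. Of 8 neurotrophins and their receptors 5 were tested and 1 was called lower, the ligand Ntf5 (5.07 ± 1.31 TPM in WT ovaries and 0.864 ± 1.75 in tumors), with a median of -1.34. Among tumors only MP4 (1.30 TPM) and MP5 (5.66) reached 1 TPM, so Ntf5 was tested only through the ovaries and its call supports nothing. Among the other small leucine-rich proteoglycans, 7 of 9 were tested and 1 was called lower, osteomodulin (Omd, 26.4 ± 16.6 TPM in WT ovaries and 2.58 ± 3.84 in tumors, log2 fold change -3.16). In these 3 lists 0 genes were called higher.

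Next come the lists of matricellular and elastic fibre proteins and of TGF-beta ligands and receptors. Of 17 matricellular and elastic fibre genes, 8 were called lower and 0 higher, with a median log2 fold change of -1.96. Tenascin C (Tnc), an adhesion-modulating matrix protein, was at 294 ± 90.3 TPM in WT ovaries and 9.64 ± 14.7 in tumors (-5.48), and thrombospondin 1 (Thbs1), an inhibitor of angiogenesis, was at 442 ± 103 and 35.0 ± 45.1 TPM (-4.54). Of 9 genes for TGF-beta ligands, receptors and binding proteins, 4 were called lower, including the receptor Tgfbr1 (-2.73) and Ltbp1, which tethers latent TGF-beta to the matrix (-5.69). Of 18 mesenchymal transcription factors and E-protein partners of TCF21, 15 were tested and 2 were called lower, Prrx2 (-2.81) and Nr2f2 (-1.91), with a median of -1.02.

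Cell type markers were read by lineage. A marker that reached 1 TPM in fewer than 3 tumors could be tested only through the ovaries, and a call lower of such a marker supports nothing. Of 16 other fibroblast markers 14 were tested and 5 were called lower, with a list median of -2.11. By limma's moderated statistic they were led by Col15a1, a basement membrane collagen (82.1 ± 19.4 TPM in WT ovaries and 12.6 ± 10.1 in tumors, log2 fold change -3.11), and Gsn, an actin-severing protein (-2.81). S100a4, also called lower, had a log2 fold change of -3.08. Of 6 smooth muscle and myofibroblast markers 5 were called lower, among them smooth muscle myosin (Myh11, -5.76) and gamma-2 actin (Actg2, -4.41). Of 5 blood endothelial markers 3 were called lower, including the angiopoietin receptor Tek (-3.37) and Emcn (-2.55), and of 4 mesothelial markers 1 was, Msln (-3.82). The lists of the ovary's own cells had the lowest medians, -4.94 for granulosa cells, where 4 of 5 were called lower (Amh, -7.19, and Fshr, -5.16), and -7.77 for theca and luteal cells, where 4 of 5 were called lower (Lhcgr, -8.60, and Star, -7.77). The granulosa marker Amhr2 did not pass (-1.14, adjusted P = 0.495 by limma). Granulosa markers summed to 2155 TPM in MP4, 1596 in MP5, 1014 in MP6 and 1313 in the library labelled MP10, all below the ovaries. In the other tumors they summed to 19.1 to 182 TPM. Of 6 epithelial markers 3 were called lower, including Epcam (41.5 ± 6.70 TPM in WT ovaries and 4.10 ± 5.12 in tumors) and Cdh1 (-2.91), and their sum ran from 5.67 to 1152 TPM in tumors, where Epcam, a defining marker, was at 0.348 to 15.7 TPM and Cdh1 was at 0 in 1 of 10. Of 5 leukocyte and macrophage markers limma called 0, and the most abundant, Cd68, had a log2 fold change of -0.76 (adjusted P = 0.337 by limma).

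**Figure D4:**
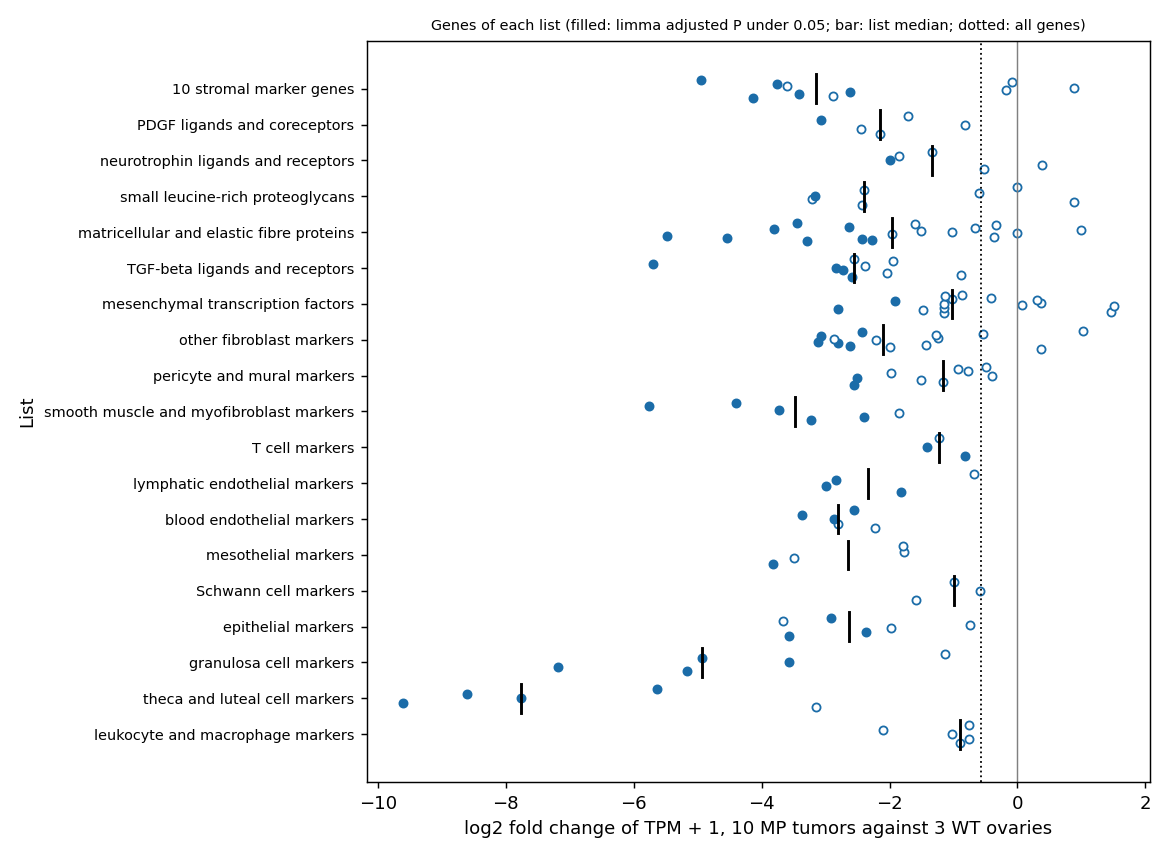
Log2 fold change of TPM + 1, 10 MP tumors against 3 WT ovaries, for each tested gene of each list, filled where the limma adjusted P is under 0.05, with the list median as a bar and the median of all genes (-0.58) as a dotted line. Medians of all lists lie left of the dotted line, farthest for theca and luteal markers at -7.77, and the 10 stromal genes have a median of -3.16.

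Whether markers varied together from tumor to tumor was read in 8 fixed pairs over the 10 MP tumors, on log2(TPM + 1), with 2-sided permutation tests adjusted over the 8 pairs. By Pearson's r, 3 pairs passed. Pdgfra went with Dcn (r = 0.862, P = 0.00239, adjusted P = 0.00956 by permutation, rho = 0.758), Pdgfra with Pdgfrb (r = 0.809, P = 0.00156, adjusted P = 0.00956 by permutation, rho = 0.758) and Dcn with Lum (r = 0.832, P = 0.00838, adjusted P = 0.0223 by permutation, rho = 0.430). By Spearman's rho 0 pairs passed, the smallest adjusted P being 0.0594 by permutation. Leaving out MP5 and MP9, the tumors farthest from the median of the first gene in all 3 pairs, gave r = 0.504, 0.624 and 0.108 in the same order, so the relation of Dcn with Lum did not hold without those 2 tumors. Leaving out the farthest tumors narrows the range of the first gene, which by itself lowers r.

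The other 5 pairs had r between -0.224 and 0.606 and adjusted permutation P values of 0.124 or more. They were Fap with Postn (0.606), Thy1 with Dcn (0.527), Pdpn with Prox1 (0.502), Pdgfrb with Rgs5 (0.292) and Thy1 with Cd3e (-0.224). Within the 7 tumors of sets B and C, r was 0.842 for Pdgfra with Dcn, 0.773 for Pdgfra with Pdgfrb and 0.817 for Dcn with Lum, and 0 of 8 pairs passed after adjustment (smallest adjusted P = 0.105 by Pearson's r and 0.0984 by Spearman's rho, exact permutation tests). There r for Dcn with Lum was 0.504 over 5 tumors, without MP8 and MP9, the farthest in Dcn. The 3 tumors of set A were too few for a correlation. The ratio of Pdgfra to Pdgfrb TPM, chosen after the values were seen, was 0.728 to 1.06 in WT ovaries and between 0.0634 (MP6) and 1.01 (MP2) in tumors, so in MP6 Pdgfrb stood at 23.5 TPM beside 1.49 TPM of Pdgfra.

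**Figure D5:**
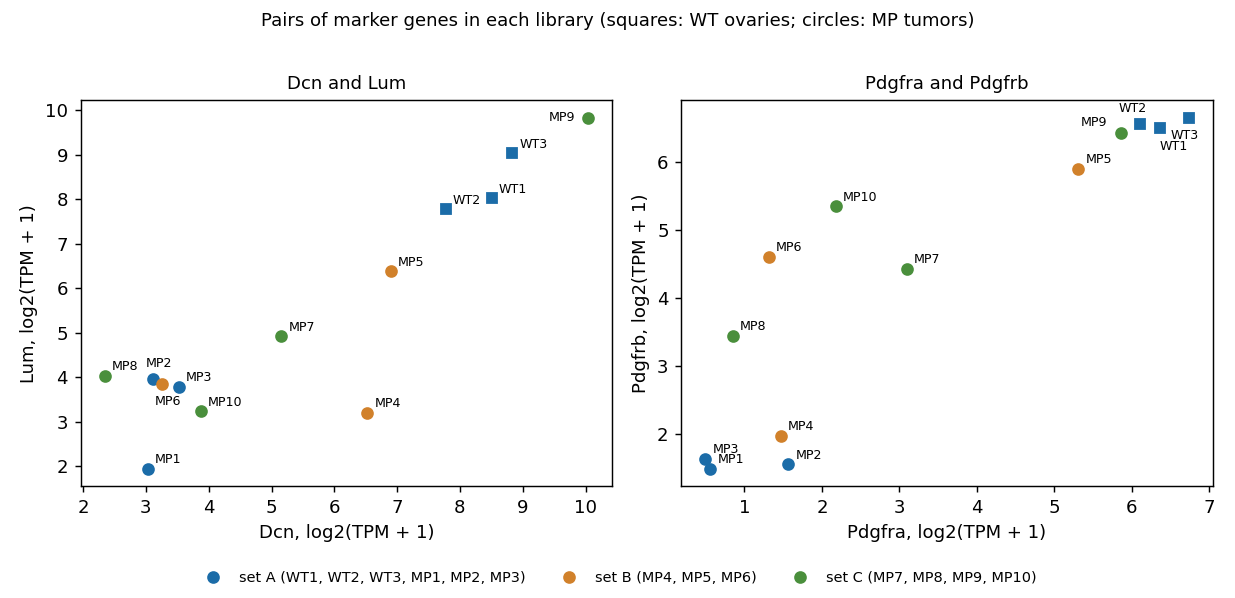
Lum against Dcn (left) and Pdgfrb against Pdgfra (right), each as log2(TPM + 1), 1 point per library, squares for WT ovaries and circles for MP tumors, coloured by set. MP5 and MP9 lie nearest to the WT ovaries in the right panel, and MP9 lies beyond them in the left panel.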

How the data were processed

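PolyA-selected RNA of whole tissue from 3 WT ovaries and 10 MP tumors was sequenced as 76 bp single-end reads. The submitters' processing notes name FastQC 0.11.5, Trimmomatic 0.36, STAR 2.5.3a, featureCounts 1.6.3 and mm10 (GRCm38), whereas the label protocols name a human build, HTSeq and RPKM. The authors deposited 1 table of TPM values, with 1 column per library and no pooling, holding mouse genes of which 95.9% carry the positions of GENCODE M21 on GRCm38, so mouse TPM was taken as the unit. Columns were matched to samples by the label's description, and 0 value columns were left over. Groups and replicate numbers come from the sample titles.

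Reads per gene were recovered from the product of TPM and gene length, which came in whole steps in 100% of values above 0 (tolerance 0.05 of a read). Depth limits low values most in tumors. Limits from a count of 0 cover counting error only, and reads are not independent molecules. Since TPM sums to 1000000, a gene's TPM falls when other genes take more. Counting is not stated to use strand, so reads of overlapping genes cannot be told apart. Pairs of libraries of 1 group differed by more than sampling noise (chi-square per degree of freedom at least 18.7 in WT and 30.2 in MP). Labels do not say how many mice gave the tumors, so P values measure the spread between these samples.

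The 17277 genes that reached 1 TPM in 3 or more libraries were tested on log2(TPM + 1) with limma 3.58.1 (trend and robust) in R 4.3.3, with Benjamini-Hochberg adjustment over all of them and a threshold of 0.05. The 3 comparisons were made, all without covariates. Pairs were tested with 100000 permutations, or exactly over 7 tumors. Promoters came from RefSeq (GRCm38.p6). Scripts were tested on simulated data. Python 3.11.15, pandas 2.3.3 and matplotlib 3.10.9 were used.

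The 10 genes, the other lists, the tests and the alternatives were chosen with earlier results of these data known. Named genes are the 10, up to 2 called genes per direction of each other list with the largest moderated statistic (or the most abundant in WT where none was called), and Rgs5, Cd3e and Prox1 for the pairs. Alternatives were the pseudocount, the filter, the scaling, voom on the reads worked back, limma's options, the number in the library name, a replicate block and single libraries. Leaving out MP2 and the library labelled MP10 together was chosen after seeing the data. Same-numbered WT and MP libraries are different animals, and their deviations correlated at -0.0963, -0.0214 and 0.00118, so the numbers were not taken to pair them.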

Additional observations from a re-analysis of the deposited data

Results flagged for a closer look

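Values of 1 tumor stood apart from the other 9 in 11 of 33 measures (the 10 genes and the summed TPM of each list), by the gap to the nearest tumor as a share of the range over all 10. For normally distributed values chance gives about 1 such value in 20 measures. TPM over these tumors was mostly skewed toward high values, the rate for such values was not measured, and the measures overlap. MP9 accounted for 5 of the 11: Dcn at 1050.4 TPM (next highest tumor 118), Lum at 910.3 TPM (next 82.7), the sum of Dcn, Lum and Postn at 1995 TPM (next 233), the sum of all 10 genes at 2304 TPM (next 583) and the sum of mesothelial markers at 751 TPM (next 115). The sums of matrix genes and of all 10 genes hold Dcn and Lum, so they are not separate measurements. MP5 was apart for the sum of neurotrophins and their receptors at 81.9 TPM (next 39.9), of which Sort1 made up 65.7 TPM, and for smooth muscle and myofibroblast markers at 2403 TPM (next 868), of which Acta2 and Myl9 made up 1186 and 1146 TPM. The library labelled MP10 was apart for T cell markers at 17.2 TPM (next 6.49), of which Lck made up 15.6 TPM. MP8 was apart for lymphatic endothelial markers at 27.5 TPM (next 13.4), of which Reln made up 25.4 TPM. MP4 was apart for epithelial markers at 1152 TPM (next 464), mostly Krt18 (496 TPM), Krt8 (425) and Krt19 (205), and MP3 for theca and luteal cell markers at 308 TPM (next 105), of which Cyp11a1 made up 221 TPM. Genes that carry a sum were named after their values were seen.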

How the results depend on the processing

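The count of 5 genes lower in MP tumors was 3 with median-of-ratios scaling, 3 with no filter on low values and 3 without MP2 and the library labelled MP10, was 7 with voom, with the set as a term and within set A, and ranged from 2 to 7 with single libraries left out. Over all genes the count lower, 2463, was 1896, 3631 and 2901 in the first 3, 4045, 8534 and 9902 in the next 3 and 1158 to 3264 with single libraries left out. Tcf21 and Ngfr were called in 24 of 24 alternatives, Pdgfra in 21, Lum in 12, Thy1 in 10, Pdgfrb in 8, Dcn in 6, Fap in 1, and Pdpn and Postn in 0. With a replicate block 8 genes were called, 7 lower and Fap higher (1.04, adjusted P = 0.0232 by limma), from 3 tumors only, since the block leaves out unpaired tumors. Against the other tumors, the set A tumors had 1 call, which became 0 with median-of-ratios scaling, no filter, quantile normalization or without MP2 and the library labelled MP10, became 2 with voom, and was 1 with each single library left out. Within set A the 7 calls ranged from 7 to 9. The 3 correlated pairs became 0 over 7 tumors. The cause of these changes was not tested.

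Of the log2 fold changes that turned sign, 0 passed the threshold by limma in any alternative that turned them. Against WT, Pdpn was 0.53 with median-of-ratios scaling, 0.20 with quantile normalization and 0.0030 with voom, and -0.38 to 0.063 with single libraries left out. Postn was 0.58, 0.88 and 0.23 in the same 3, 0.087 with the set as a term, within set A and with the replicate block, and -0.27 to 0.13 with single libraries left out. In set A against other tumors, Thy1 was 0.61 with median-of-ratios scaling, 0.75 with quantile normalization, 0.055 with voom, 0.15 without MP2 and the library labelled MP10, and -1.30 to 0.20 with single libraries left out. Pdpn was 0.37 with median-of-ratios scaling, Fap -0.028 without MP2 and the library labelled MP10 and -0.24 to 0.80 with single libraries left out, and Postn -0.070 to 0.53. Within set A, Pdpn was 0.79 with median-of-ratios scaling and Postn -0.0083 to 0.22 with single libraries left out. For Pdgfrb with Rgs5, r was -0.250 with median-of-ratios scaling. Depth limits Ngfr, Tcf21 and Thy1 most, with as few as 0, 0 and 2 reads in a tumor.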
